A study of Mus musculus with 28 samples.

Results

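ADAM12 and 9 ADAMTS proteases were followed in jugular veins turned into arteriovenous fistulas (AVFs). The 10 genes, *Adam12*, *Adamts1*, *Adamts2*, *Adamts4*, *Adamts5*, *Adamts8*, *Adamts9*, *Adamts10*, *Adamts12* and *Adamts15*, were taken by symbol from the 56980 genes of a bulk count table and from the 32285 genes of 3 single-cell matrices. All mice were C57BL/6 animals of both sexes that had undergone 5/6 nephrectomy, which removes most of the renal mass, and then had the end of one jugular vein joined to the side of the carotid artery, so that all groups shared the kidney injury. Contralateral veins are jugular veins from the side without surgery, and AVFs were collected early (labelled day 3), mid (day 10) or late (day 21). By the study's methods the days of harvest varied within each of these bulk groups, most in the early one. Bulk RNA sequencing had 1 library per vessel, from 7 contralateral veins (5 female, 2 male) and 8 early (3 female, 5 male), 5 mid (3 female, 2 male) and 5 late AVFs (3 female, 2 male). Single-cell RNA sequencing had 1 library per condition (contralateral, early, late), each made from vessels of several mice of both sexes pooled and digested with enzymes, and its early and late vessels were, by the study's methods, not all taken on the same days as those of the bulk series. Nothing in the labels ties a contralateral vein to an AVF of the same mouse, so the groups were compared without pairing.

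ADAM and ADAMTS proteins are zinc metalloproteinases of the extracellular space. They are made with a prodomain that proprotein convertases such as furin remove, and their catalytic domain holds a zinc ion between 3 histidines. ADAM12 is anchored in the membrane or secreted as a short form, and is known for releasing heparin-binding EGF-like growth factor and cutting the IGF-binding proteins 3 and 5. The ADAMTS proteins are secreted and carry thrombospondin repeats that attach them to matrix. ADAMTS1, 4, 5, 8, 9 and 15 are grouped as proteoglycanases, which cut versican and aggrecan. ADAMTS2 removes the N-propeptide of fibrillar procollagens, ADAMTS10 binds fibrillin microfibrils, and ADAMTS12 can cut cartilage oligomeric matrix protein. TIMP3 inhibits several of them, and the receptor LRP1 takes some of them up. In vessel walls versican and fibrillar collagen are the main matrix these enzymes meet.

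The coding bases of the zinc site are shown to place the 10 members beside each other. Each site is the 33 coding bases that begin and end at the outer histidines of the motif, read 5′ to 3′ from the member's longest coding transcript in GENCODE M21 (build GRCm38), with the 3 histidine codons in capitals.
Adam12: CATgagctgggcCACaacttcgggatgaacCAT
Adamts1: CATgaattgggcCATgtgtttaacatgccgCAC
Adamts2: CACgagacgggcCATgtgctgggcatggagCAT
Adamts4: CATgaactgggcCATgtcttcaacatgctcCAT
Adamts5: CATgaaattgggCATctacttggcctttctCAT
Adamts8: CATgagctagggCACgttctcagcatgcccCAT
Adamts9: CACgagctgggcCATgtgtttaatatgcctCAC
Adamts10: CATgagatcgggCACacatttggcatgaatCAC
Adamts12: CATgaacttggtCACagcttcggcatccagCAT
Adamts15: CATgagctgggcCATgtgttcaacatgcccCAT
Each protein held the motif 1 time. *Adamts4* and *Adamts15* shared 30 of the 33 bases, and *Adamts1*, *Adamts9* and *Adamts15* shared 28 in each of their pairs, all 4 genes encoding proteoglycanases. The proteoglycanase gene *Adamts5* shared only 18 (*Adamts9*) to 21 (*Adamts8*) bases with the others of that class. *Adamts8* shared 21 (*Adamts5*) to 27 (*Adamts15*) with them. *Adam12* shared between 17 (*Adamts5*) and 25 (*Adamts12*) bases with the ADAMTS members. In *Adam12* the site lies within exon 11 of 23, at chr7:133961158-133961190 on the minus strand. In the ADAMTS members it is split over neighboring exons, for example exons 9 and 10 of 25 in *Adamts10* (chr17:33538157-33538279, plus strand) and exons 3 and 4 of 9 in *Adamts1* (chr16:85799191-85799545, minus strand), spans that include the intron. *Adamts1* (chr16:85793827-85803113) and *Adamts5* (chr16:85856173-85901828) are neighbors on the minus strand, and *Adamts8* (chr9:30942562-30963838, plus strand) lies beside *Adamts15* (chr9:30899155-30922452, minus strand). *Adamts2*, *Adamts8* and *Adamts9* overlap other genes on the opposite strand, and *Adam12* overlaps 3 genes on its own strand. Whether the counting used strand is not given in the sources used here, so reads of such partners could not be told apart.

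Bulk libraries held 20254173 to 67457501 counts. Contralateral veins were the least alike, with a median Spearman correlation of 0.678 between libraries against 0.867 (early), 0.956 (mid) and 0.953 (late) in AVFs, and 11958 to 18283 genes detected against 24529 to 26771 in late AVFs. The labels call all tissues vein or AVF, and the smooth muscle and endothelial markers of a vessel wall were present in every library, but lower in AVFs: 6 of 6 smooth muscle markers fell at each time point, and 4, 5 and 4 of 6 endothelial markers fell in early, mid and late AVFs. Neutrophil markers rose in early AVFs (5 of 5) and 4 of 6 macrophage markers did so. Of 6 fibroblast markers (*Pdgfra*, *Dcn*, *Lum*, *Col1a2*, *Dpt*, *Gsn*), 4 fell early, 2 at the mid time point and 1 late. Skeletal muscle markers rose (6, 6 and 5 of 6), with a summed level of 0.21 to 30.9 CPM (counts-per-million scale) in contralateral veins, while early AVFs had 5.21 to 4152, mid AVFs 605 to 6518 and late AVFs 6.76 to 8049. Of 5 cartilage markers 4 were tested and 3, 2 and 3 rose. No adipocyte marker rose, and 1 of 5 fell in mid and 1 in late AVFs. The 1 thyroid or parathyroid marker tested was not called (log2 fold changes 9.96, 7.69 and 9.23). The summed level of the 4 such markers was 0 to 10.81 CPM in contralateral veins. It reached 14040 in early AVF 1, 1614 in mid AVF 12 and 5314 in late AVF 19, beside group medians of 13.33, 10.43 and 3.59. Early AVF 10 and contralateral veins 27, 28 and 35 stood apart in single members, and the values without them are given beside the results they touch.

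All 10 members passed the filter for testing (100 or more DESeq2-normalized counts on average over the 25 libraries), as did 12673 genes in all. A gene was called when edgeR's quasi-likelihood test gave an adjusted p (Benjamini–Hochberg over all genes tested) under 0.01 and the log2 fold change was 1 or more in either direction. CPM was taken over the counts of the tested genes after TMM scaling. The p-values weigh a difference of groups against the spread of vessels within groups, with each vessel taken as independent. The labels do not say which vessels share an animal. By the study's methods 25 mice were assigned to bulk sequencing, as many as there are bulk libraries.

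*Adam12* (ENSMUSG00000054555), the shedding protease of the group, was nearly absent from contralateral veins and present in every AVF. The 7 contralateral veins had between 0 and 13.85 CPM with a median of 0.25, and 2 of them had no read. In the 8 early AVFs the lowest value was 41.1, the median 105.8 and the highest 164.9 CPM. Mid AVFs 9, 12, 13, 14 and 15 had 87.8, 107, 73.0, 101.1 and 103.2 CPM, and late AVFs 16, 17, 19, 23 and 24 had 27.9, 43.1, 43.3, 32.1 and 36.6 CPM. All AVFs therefore lay above all contralateral veins, and all late AVFs lay below all mid AVFs, while early and late AVFs overlapped in the lowest early vessel. Group means were 2.65 ± 5.04 (SD, n = 7), 105.7 ± 42.3 (n = 8), 94.4 ± 14.0 (n = 5) and 36.6 ± 6.75 CPM (n = 5). *Adam12* rose in early AVFs by a log2 fold change of 5.31 (SE 0.94, edgeR adjusted p = 0.000153), in mid AVFs by 5.15 (SE 0.97, adjusted p = 0.000618) and in late AVFs by 3.78 (SE 0.92, adjusted p = 0.00697). Contralateral vein 35 carried the highest control value, and without it the 3 changes were 6.98, 6.84 and 5.48. The call in late AVFs was lost when any 1 of the 5 late AVFs, or contralateral vein 27 or 633, was left out, with adjusted p between 0.0117 and 0.0158 and a log2 fold change between 3.71 and 3.83. Between late and mid AVFs the difference of -1.37 (SE 0.95, adjusted p = 1) and between late and early AVFs that of -1.53 (SE 0.89, adjusted p = 0.476) did not pass the test in the fit of all groups, although the latter did when only those 2 groups were fitted (-1.53, adjusted p = 0.00622). In female mice alone the 3 changes from contralateral veins were 4.65, 4.78 and 3.52 and no longer called (edgeR adjusted p 0.0605 to 0.181), and in fits of only 2 groups the mid (5.15) and late (3.79) ones were not (adjusted p 0.0408 and 0.187).

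*Adamts10* (ENSMUSG00000024299), the fibrillin-binding member, was the other gene called. Its 7 contralateral veins ranged from 52.1 to 150.5 CPM with a median of 81.0, and its 8 early AVFs from 10.8 to 80.2 with a median of 32.98. Mid AVFs 9, 12, 13, 14 and 15 had 98.5, 94.6, 103.5, 102.5 and 98.7 CPM, and late AVFs 16, 17, 19, 23 and 24 had 86.2, 108.3, 90.6, 115.6 and 128.9 CPM. Early AVFs were thus low apart from AVFs 4 and 10, whose 52.3 and 80.2 CPM fell within the contralateral range, and all mid and late AVFs lay above all early ones. *Adamts10* fell by 1.43 on the log2 scale in early AVFs (SE 0.33, edgeR adjusted p = 0.00213) and rose by 1.57 between early and late AVFs (SE 0.35, adjusted p = 0.00603). The rise between early and mid AVFs, 1.48 (SE 0.35, adjusted p = 0.0157), missed the threshold, and mid and late AVFs differed from contralateral veins by only 0.05 (SE 0.37, adjusted p = 0.954) and 0.14 (SE 0.37, adjusted p = 0.856). Without early AVF 10 the early difference from contralateral veins was -1.79 and mid against early was called (1.78, adjusted p = 0.0034). The late against early call was lost without early AVF 2, 3, 5 or 6 or any 1 late AVF (log2 fold change 1.48 to 1.65, adjusted p 0.0107 to 0.0234), and in female mice alone neither the early change (-1.25) nor the late against early one (1.40) was called (adjusted p 0.284 and 0.645). Fits of only 2 groups also lost both (-1.41 and 1.56, adjusted p 0.0374 and 0.0116), and a test of all genes without a filter lost the later one (1.60, adjusted p = 0.018).

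Counted over the 10 members, 2 were called in early against contralateral vessels (1 higher, 1 lower), beside 12.6% of all genes tested, and 1 member lay above all contralateral veins in every early AVF, beside 4.47% of genes. In mid AVFs 1 member was called beside 6.05% of genes, and 1 did not overlap beside 7.32%. In late AVFs 1 was called beside 5.33% of genes, and 2 lay above every contralateral vein (*Adam12* and *Adamts8*) beside 6.25%. Late against early gave 1 call beside 3.01% and 1 member wholly above beside 7.16%. Mid against early gave none in edgeR beside 0.00789% (1 gene), with 4 members at an unadjusted p under 0.05 and 1 call in DESeq2 (*Adamts10*), and 1 member wholly above beside 3.31%. Late against mid gave none in edgeR or in DESeq2 beside 0%, with 0 members at an unadjusted p under 0.05, although *Adam12* and *Adamts4* were lower in every late than in every mid AVF, beside 1.06% of genes. With 10 members each gene weighs 10%, so these counts do not set the members apart from all genes. Over the 10 members the median log2 fold change was -0.54, 0.39 and 0.29 in early, mid and late AVFs against contralateral veins, beside -0.01, -0.10 and -0.09 over all genes.

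**Figure D1:**
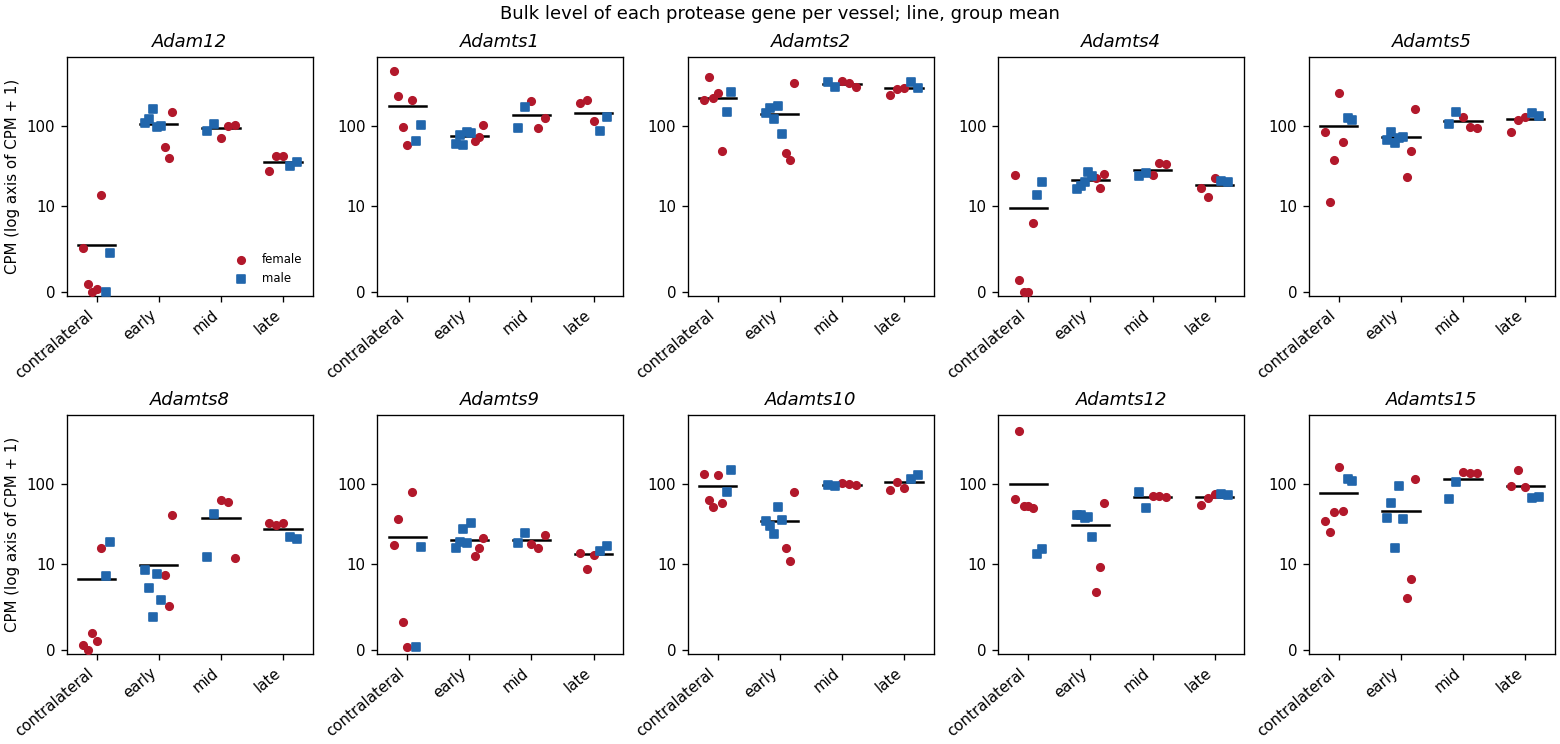
Level of each member in each bulk vessel (CPM on a log axis of CPM + 1; circles female, squares male; line, group mean). *Adam12* separates all 18 AVFs from the 7 contralateral veins, and for *Adamts10* 6 of the 8 early AVFs lie below every contralateral vein.

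None of the 6 proteoglycanases was called in edgeR in any of the 6 comparisons, though *Adamts1* in 3 of them, *Adamts8* in 2 and *Adamts15* in 1 had an unadjusted p under 0.05. *Adamts1*, which cuts versican, ranged from 58.5 to 472.4 CPM in contralateral veins and from 59.1 to 103.3 in early AVFs, with a mean of 177.5 ± 146.8 (n = 7) against 76.4 ± 14.6 CPM (n = 8). Contralateral vein 27 held the 472.4. Its early difference of -1.22 (SE 0.35, edgeR adjusted p = 0.0118) lay just outside the threshold, was within it in DESeq2 (-1.22, adjusted p = 0.0035) and in edgeR with the filterByExpr filter, with library sizes over all genes, at an adjusted p under 0.05 and in 9 of 25 fits that left 1 library out, and was -0.97 with sex as a term and -0.73 without vein 27 (edgeR adjusted p 0.0597 and 0.0794). Mid and late AVFs were at 138.4 ± 48.0 and 147.7 ± 52.5 CPM (n = 5 each), within the contralateral range. *Adamts5*, a main aggrecanase of mice, was 99.8 ± 79.1, 74.6 ± 39.6, 116.1 ± 23.55 and 122.6 ± 22.9 CPM in the order contralateral, early, mid, late. The groups overlapped, and no difference passed the test (log2 fold changes -0.42, 0.22 and 0.30 against contralateral veins, SE 0.41 to 0.46). Early AVF 10 had 161.0 CPM beside 23.9 to 85.9 in the other early AVFs, and contralateral vein 34 had 252.2. The early log2 fold change was -0.76 without the former and 0.02 without the latter, both uncalled.

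*Adamts4*, another aggrecanase, was at 0 in 2 contralateral veins and reached 25.4 CPM in vein 27, while all AVFs lay between 13.0 and 35.9 CPM. Its log2 fold changes were 1.19, 1.63 and 1.00 with SE of 0.84, 0.93 and 0.92, so that even these differences of 2- to 3.1-fold were not called (adjusted p 0.28 to 0.553). *Adamts8* was under 1 CPM in 4 of 7 contralateral veins and at 6.74, 16.3 and 19.2 in the others. Its mid AVFs 9, 12, 13, 14 and 15 had 12.5, 43.5, 64.7, 60.0 and 11.9 CPM, and its late AVFs lay between 21.1 and 33.2, above every contralateral vein. Neither the mid (2.63, SE 1.05, adjusted p = 0.103) nor the late difference (2.19, SE 1.04, adjusted p = 0.188) passed the test over all genes. Early AVF 10 had 42.2 CPM of *Adamts8* while the other 7 early AVFs had 1.53 to 8.27, and without it the early log2 fold change turned from 0.62 to -0.41, both uncalled. *Adamts9*, another versican-cutting member, ranged widely among contralateral veins (0.078 to 81.8 CPM, highest in vein 35), its AVFs lay between 8.54 and 33.1 CPM, and its differences were -0.10, -0.12 and -0.73 (SE 0.79 to 0.91). *Adamts15*, in the same order of groups, was at 77.8 ± 52.35, 46.7 ± 41.65, 118.0 ± 31.6 and 95.2 ± 32.5 CPM, with early AVFs 6 and 7 lowest at 3.20 and 6.15 and early AVF 10 highest at 116.9.

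*Adamts2*, the procollagen N-proteinase, had means of 221 ± 108.6, 139.9 ± 95.2, 328.8 ± 23.2 and 293 ± 38.8 CPM in contralateral, early, mid and late vessels. Early AVFs again spanned a wide range, from 38.2 and 46.6 in AVFs 7 and 6 to 335.8 in AVF 10. Mid against early gave 1.23 (SE 0.39, adjusted p = 0.08) and late against early 1.07 (SE 0.39, adjusted p = 0.119), neither called. *Adamts12* had its highest value in contralateral vein 28, at 452.7 CPM beside 13.4 to 66.8 in the other 6 veins, and ranged from 4.04 to 58.4 in early, 51.6 to 79.6 in mid and 55.2 to 76.2 in late AVFs. Its early difference was -1.67 (SE 0.57, edgeR adjusted p = 0.036), and only -0.40 without vein 28. DESeq2 called *Adamts12* lower in early AVFs (adjusted p = 0.00956), as did edgeR at an adjusted p under 0.05.

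Set per length, as CPM per kilobase of exon (RPKM, with GENCODE M21 exon lengths), the means in contralateral veins ran from *Adamts1* (33.5 ± 27.7) and *Adamts2* (23.7 ± 11.6) through *Adamts10* (11.6 ± 4.98), *Adamts12* (9.27 ± 14.3), *Adamts5* (9.24 ± 7.33) and *Adamts15* (7.51 ± 5.05) to *Adamts4* (1.97 ± 2.20), *Adamts9* (1.47 ± 1.97), *Adamts8* (1.34 ± 1.80) and *Adam12* (0.25 ± 0.476). Neighbors in this order differed by less than the larger of their SDs, except *Adamts2* from *Adamts10* and *Adamts15* from *Adamts4*. In early AVFs *Adam12* ranked 3 of 10 at 10.0 ± 4.00 RPKM, behind *Adamts2* (15.0 ± 10.2) and *Adamts1* (14.4 ± 2.76). In late AVFs it was at 3.46 ± 0.638 RPKM, rank 9 of 10, with *Adamts4* just above (3.93 ± 0.801) and *Adamts9* below (0.888 ± 0.204).

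**Figure D2:**
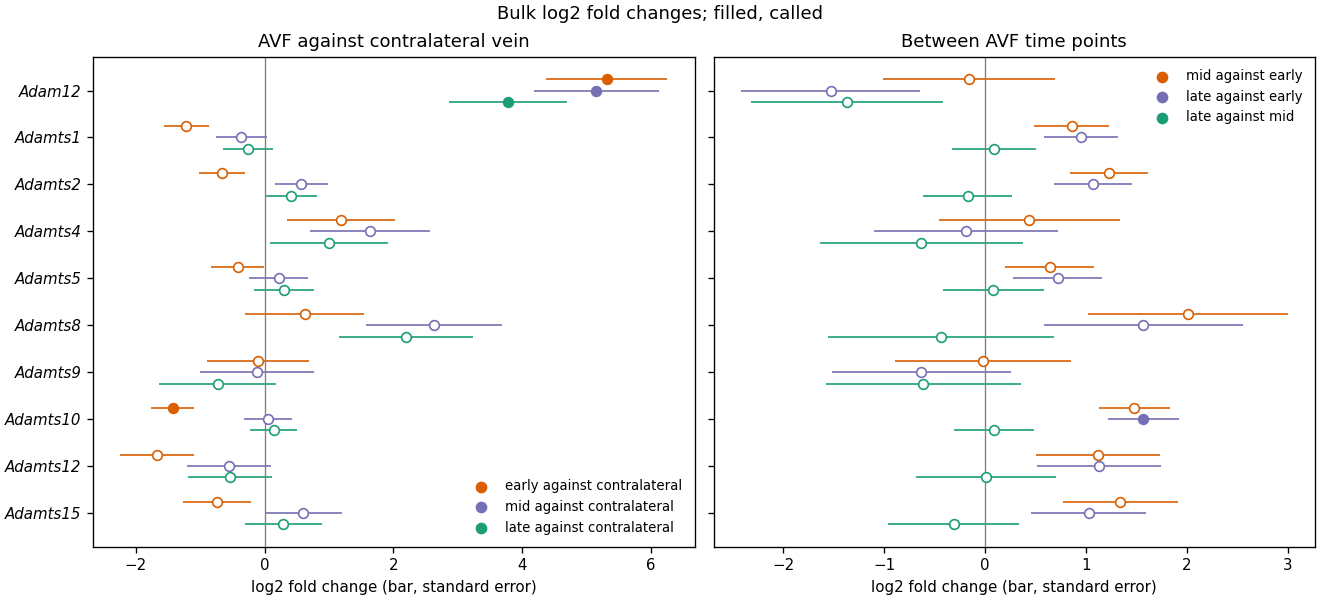
Log2 fold changes of the members with their standard errors in the 6 comparisons (edgeR; filled points passed both limits of a call). *Adam12* at 5.31, 5.15 and 3.78 and *Adamts10* at -1.43 and 1.57 are filled.

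Several members varied among early AVFs in the order of the fibroblast markers. The summed level of the 6 fibroblast markers was 2580 and 2908 CPM in early AVFs 7 and 6 and 16000 in AVF 10, with 4998 to 11460 in the other 5, beside 18790 to 38700 in the contralateral, 14600 to 20690 in the mid and 16200 to 28230 in the late vessels. AVFs 6 and 7 were also the 2 lowest early vessels for *Adamts2*, *Adamts5*, *Adamts10*, *Adamts12*, *Adamts15* and *Adam12*, and AVF 10 the highest for the same genes except *Adam12*, in which AVF 3 was highest. *Adamts4* and *Adamts9* did not have this order. The labels give the same day for all early AVFs, and the part of the true day of harvest in this spread was not tested. The part of fibroblast content in the early fall of *Adamts10* was not tested, and in bulk vessels fewer cells of a type and less RNA per cell cannot be told apart. The skeletal muscle markers were highest in early AVFs 10 and 1 (4152 and 3594 CPM), the former being the early AVF with the most *Adamts8*, and their part in that value was not tested.

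Across the 25 libraries the members did not move as 1 set. The most alike pairs, by Pearson's r of log2 CPM, were *Adamts10* and *Adamts15* (0.82), *Adamts2* and *Adamts10* (0.80) and *Adam12* and *Adamts4* (0.76), while *Adam12* and *Adamts10* had -0.24. Of all tested genes, those most like *Adam12* were *Arl4c* (0.96), *F10*, the gene of coagulation factor X (0.95), and *Steap2* (0.95). Most like *Adamts2* were *Thbs3* (0.93), the fibril-associated collagen gene *Col14a1* (0.91) and *Tgfb3* (0.90), and most like *Adamts10* were *Col14a1* (0.90), *Itgbl1* (0.90) and *Il11ra1* (0.88). *Adamts15* was most like *Cd34* (0.90), *Ccdc80* (0.90) and the nidogen gene *Nid1* (0.88). For *Adamts1* these were *Limch1* (0.81), *4930523C07Rik* (0.77) and *Rrp1* (0.74), and for *Adamts12* they were *Pnrc2* (0.86), *Nox4* (0.85) and *Arsb* (0.84). *Adamts4* (*Plcb1* 0.98, *Map1s* 0.98, *Scyl3* 0.97), *Adamts9* (*Alg13* 0.96, *Mettl15* 0.94, *Rap1gap2* 0.93), *Adamts5* (*Zfp160* 0.91, *Chd9* 0.90, *Nhsl2* 0.89) and *Adamts8* (*Zfp59* 0.89, *Fam120b* 0.88, the unnamed ENSMUSG00000121486 0.86) were most like genes of other kinds. These values describe 25 libraries that share groups and, in contralateral veins, many low counts. No member had a sex by group interaction in edgeR (adjusted p = 1 for all 10, 1 of them, *Adamts12*, at an unadjusted p of 0.0279; 13 of 12673 genes had an adjusted p under 0.05).

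The remaining genes of the families were compared as lists. Of 10 other ADAMTS genes 7 were tested, and *Adamts19* was the one called, higher at each time point. It had no read in any of the 7 contralateral veins and means of 4.22, 8.24 and 3.38 CPM in early, mid and late AVFs. These means were 32.8, 64.1 and 26.3 times a floor of 3 counts per library. The floor covers counting error only. Contralateral libraries detected fewer genes than mid and late ones, so these ratios are not lower limits of the change. The list's median log2 fold change was 1.59, 2.80 and 2.46, and did not change with *Adamts19* set at that floor. Of 6 ADAMTS-like genes 5 were tested and 0 called against contralateral veins in edgeR, with 3, 0 and 1 of them at an unadjusted p under 0.05 in the early, mid and late comparison (medians -0.98, -0.38 and 0.24). Of 12 other ADAM genes 10 were tested, and *Adam8*, a protease of leukocytes, rose from a mean of 1.79 CPM to 161.4, 80.3 and 50.8 CPM (log2 fold changes 6.47, 5.47 and 4.81), and the list's median was -0.00, 0.45 and 0.40. *Adam22*, which lacks protease activity, fell by 2.23, 1.91 and 1.59, and *Adam33* fell by 2.60 in early AVFs.

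The substrates moved in both directions. Of 11 proteoglycan genes and partners 6 were tested, and *Vcan*, which encodes versican, rose in early AVFs by 2.64 on the log2 scale (SE 0.64, edgeR adjusted p = 0.00354), with all 8 early AVFs at 125 to 284.1 CPM and contralateral veins at 0.044 to 65.2. *Acan*, the aggrecan gene and also one of the cartilage markers, had no read in contralateral veins. Its means were 2.74, 12.9 and 30.3 CPM in early, mid and late AVFs. They were 21.4 times the same floor in early and 236 times in late AVFs, with the same limit. *Bgn* rose in mid and late AVFs (1.06 and 1.13). The small proteoglycans *Dcn* and *Lum* fell in early AVFs by 2.71 and 1.82, *Dcn* also in mid AVFs by 1.53, and both rose between early and late AVFs (1.51 and 1.95). *Dcn* and *Lum* are also in the fibroblast marker list. Of 6 procollagen genes, the substrates of ADAMTS2 and its relatives, *Col5a1* rose in mid (1.98) and *Col5a2* in mid and late AVFs (1.64 and 1.36). *Col2a1*, also one of the cartilage markers, had no read in contralateral veins. Its means were 29.3, 87.7 and 53.3 times that floor in early, mid and late AVFs. *Col1a1* (0.18, 1.41 and 1.28), *Col1a2* (-0.18, 0.79 and 0.60) and *Col3a1* (-0.08, 1.27 and 1.06) were not called in these comparisons. The lists' medians were -0.34, 1.36 and 1.70 for proteoglycans and 0.59, 1.52 and 1.32 for procollagens. Of the 3 growth factor substrates of ADAM12, *Igfbp5* fell in early, mid and late AVFs (by 2.51, 1.30 and 1.30) and *Igfbp3* in late AVFs (by 1.84), while *Hbegf* was not called (2.26 in early and 1.64 in late AVFs), and the list's median was -1.08, -1.28 and -1.30.

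Inhibitors and activators also differed among themselves. Of 7 inhibitor and clearance genes 6 were tested. *Timp1* rose by 4.55, 2.36 and 2.12 and then fell by 2.42 between early and late AVFs, whereas *Timp2* fell by 2.22, 1.43 and 1.36. *Timp3*, the inhibitor with the widest action on this family, was not called against contralateral veins (-0.99, 1.25 and 1.72) and rose by 2.70 between early and late AVFs, from a mean of 209.3 ± 150.1 to 1365 ± 497.7 CPM. *Lrp1* rose in late AVFs by 1.20. Of 4 convertase genes, *Furin* rose (1.85, SE 0.49, edgeR adjusted p = 0.00736) and *Pcsk5* fell (by 1.87) in early AVFs. The median over the list of inhibitors was -0.52, 0.31 and 0.56, and over that of convertases -0.24, 0.88 and 0.95.

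The single-cell libraries give the members' levels by class of cell. After filtering, 6319 contralateral, 4753 early and 5821 late cells were kept, of 11563, 7074 and 7801 barcodes, with median depths of 2751, 8951 and 15425 UMIs. Pairs of libraries shared 14 to 19 barcodes. Fibroblast-like cells numbered 1882, 415 and 1977, endothelial-like cells 806, 63 and 69, and smooth muscle-like cells 40, 261 and 564. Most contralateral fibroblast-like cells formed a cluster apart from that of most early and late ones, so a library and a cell state cannot be told apart there. With 1 library per condition there was no test. Levels are CPM of the summed UMIs of a class in a library, and the exact Poisson 95% intervals cover counting error only. The fibroblast marker *Dcn*, which blood cells should lack, was at 13940 CPM in fibroblast-like, 350.9 in T or NK-like and 136.4 CPM in mono/macrophage-like cells over the 3 libraries. How much of a member's low level outside its main class was expression, and how much was free RNA, was not tested. This holds also for *Adam12* in T or NK-like cells.

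*Adam12* was found mainly in fibroblast-like cells of AVFs. These cells held 88.1% of its UMIs in the early and 92.9% in the late library, though they were 8.73% and 34.0% of the kept cells. Their level was 3.54 CPM (95% interval 2.59 to 4.72) in the contralateral (not above the 5.13, 2.87 to 8.46, of T or NK-like cells there), 159.3 (152.1 to 166.7) in the early and 25.9 (24.6 to 27.4) in the late library, and 41.0 in the late library when all barcodes with at least 200 genes were used. In the early library 77.8% of fibroblast-like cells had an *Adam12* UMI, beside 3.26% of mono/macrophage-like cells, at median depths of 31702 and 12966 UMIs. Thinned to 1000 UMIs per cell, the shares in fibroblast-like cells were 0.127%, 15.9% and 1.52% for contralateral, early and late, beside 0, 0.246% and 0% in mono/macrophage-like cells, where 0 of 577 contralateral and 0 of 1603 late cells leave exact binomial upper limits of 0.637% and 0.230%. Thinning left out 1172 of 6319 contralateral, 433 of 4753 early and 389 of 5821 late cells of all classes. Early endothelial-like cells had 29.8 CPM (18.2 to 46.1) from 20 UMIs, and late ones 23.9 (12.3 to 41.7), an interval that held the fibroblast-like level. The order of the 3 libraries, lowest in contralateral and highest in early, was that of the bulk group means.

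**Figure D3:**
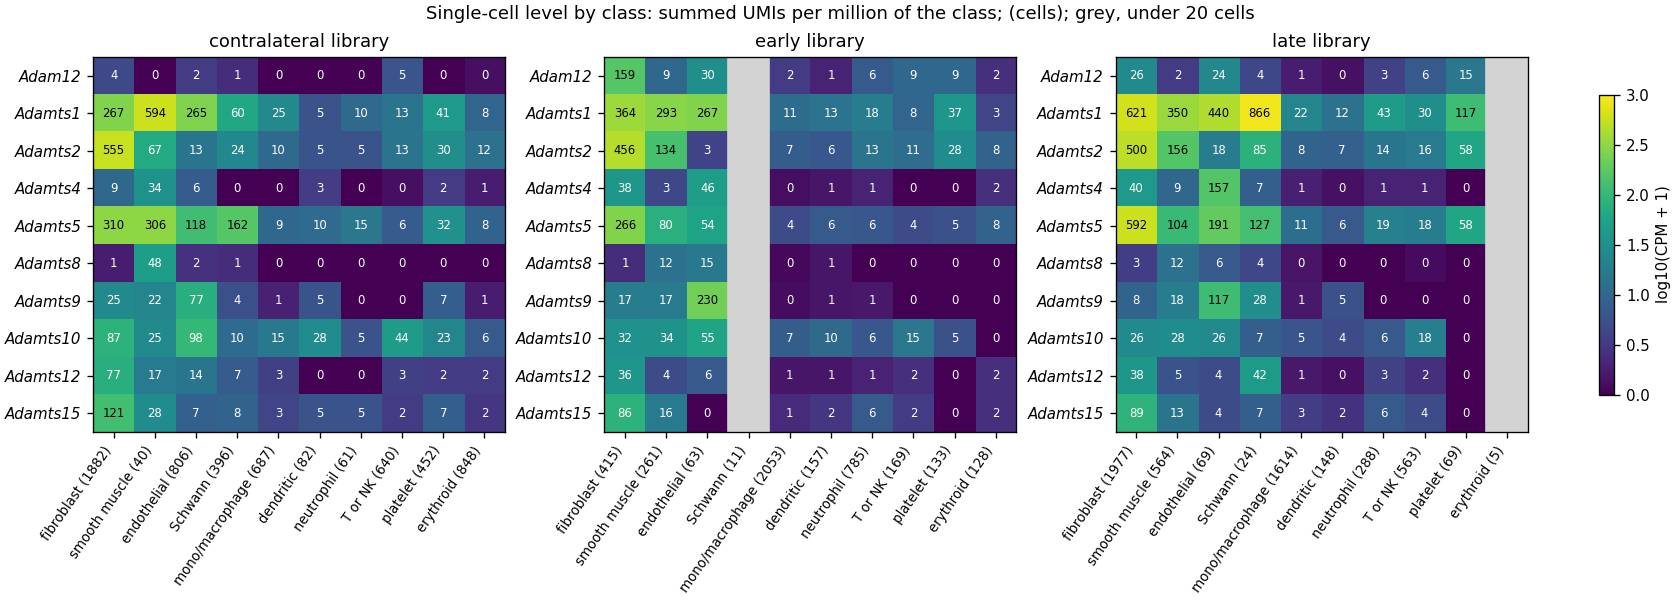
Level of each member by class and library (CPM of the class's summed UMIs, color on a log10 scale of CPM + 1, numbers in CPM, cells in parentheses, classes under 20 cells in gray). *Adam12* reaches 159 CPM in early fibroblast-like cells, and *Adamts9* is highest in endothelial-like cells of all 3 libraries.

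Of the 10 members, 4 in the contralateral, 6 in the early and 4 in the late library had their highest level in fibroblast-like cells among classes of at least 20 cells. *Adamts2*, *Adamts5* and *Adamts15* did so in all 3 libraries. For *Adamts2* the levels were 554.6 (541.9 to 567.6), 456.4 (444.2 to 468.8) and 500.0 CPM (493.9 to 506.3), beside 6.73 to 9.73 CPM in mono/macrophage-like cells. Smooth muscle-like cells lay between these levels in each library. They held 0.322%, 10.4% and 7.30% of the *Adamts2* UMIs, and fibroblast-like cells 96.7%, 82.2% and 91.0%. *Adamts15* was at 121.4, 86.1 and 89.2 CPM. *Adamts12* was at 76.6, 35.6 and 37.6 CPM, in the late library beside 42.3 CPM (21.8 to 73.8) from 12 UMIs in 24 Schwann-like cells. For *Adamts5* they were 309.7, 266.3 and 592.2 CPM, in the contralateral library beside 305.6 CPM (250.9 to 368.6) in 40 smooth muscle-like cells, whose interval held the fibroblast-like level.

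*Adamts10* was spread over more classes. In the contralateral library its level was 98.4 CPM (87.4 to 110.3) in endothelial-like and 87.0 (82.0 to 92.2) in fibroblast-like cells, with overlapping intervals, and 44.5 CPM in T or NK-like cells. In fibroblast-like cells it was 32.3 (29.1 to 35.7) in the early and 26.5 (25.1 to 27.9) in the late library. The late level was thus below the contralateral one in single cells, while in bulk vessels the late mean of 105.9 ± 17.7 CPM lay beside the contralateral 96.0 ± 41.1. The cause of this difference between the assays was not tested.

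*Adamts9* was highest in endothelial-like cells in each library, with 76.8 (67.2 to 87.5), 229.6 (194.8 to 268.9) and 117.3 CPM (89.3 to 151.4), and had 8.12 to 25.3 CPM in fibroblast-like cells. Since fibroblast-like cells were far more numerous, they still held 56.4%, 43.3% and 55.3% of its UMIs. Smooth muscle-like cells held 51.5% (33.5 to 69.2), 64.2% (53.7 to 73.8) and 51.1% (45.4 to 56.9) of the UMIs of *Adamts8*, and fibroblast-like cells 27.3%, 17.9% and 42.0%. The level in smooth muscle-like cells was 47.7 (27.8 to 76.3), 12.1 (9.22 to 15.5) and 12.2 CPM (10.3 to 14.2). The contralateral value rests on 17 UMIs in 40 cells, and the early endothelial-like value of 14.9 CPM (7.15 to 27.4) on 10 UMIs. In late fibroblast-like cells *Adamts8* was at 2.57 CPM, and at 6.77 with all barcodes. *Adamts4* was higher in fibroblast-like cells of AVFs (38.2 and 39.7 CPM) than of contralateral veins (9.15, 7.58 to 10.9), and reached 157.1 CPM (124.4 to 195.8) in 69 late endothelial-like cells. In the early library, too, its level was higher in endothelial-like than in fibroblast-like cells, there from 31 UMIs in 63 cells.

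*Adamts1* was shared by the cells of the vessel wall. Its levels were 267.1, 364.4 and 620.7 CPM in fibroblast-like, 264.9, 266.9 and 439.5 in endothelial-like, and 594.3, 292.8 and 349.5 CPM in smooth muscle-like cells. The 24 late Schwann-like cells had 866.4 CPM (761.5 to 981.8), the highest level among classes of at least 20 cells. Mono/macrophage-like cells were at 10.6 to 24.8 CPM. Enzymatic digestion comes before the single-cell libraries and not before the bulk ones, and its part in the level of *Adamts1* was not tested.

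Fibroblast-like cells were divided again by markers of resting (*Inmt*, *C7*), activated (*Postn*, *Tnc*, *Cthrc1*), adventitial (*Pi16*, *Dpp4*) and late-type (*Thbs4*, *Cilp*, *Comp*) fibroblasts. Resting cells were 64.1% of contralateral fibroblast-like cells, activated cells 74.7% of early ones and late-type cells 42.7% of late ones, and 26.9%, 10.8% and 33.6% stayed unnamed. *Adam12* was at 1.59 CPM in resting contralateral cells, at 185.5 (176.6 to 194.7) in 310 activated early cells and at 67.5 (61.2 to 74.3) in 207 activated late cells. In the late library its level was 17.4 CPM in adventitial and 11.1 in late-type cells, so that within 1 library it was highest in the activated cells. Late-type cells had 42.2 CPM (31.3 to 55.8) in the early library (48 cells) and 33.3 (16.0 to 61.3) in the contralateral one, there from 10 UMIs in 28 cells.

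*Adamts5* had another pattern, with 1005 (955.7 to 1055) and 1109 CPM (1082 to 1137) in adventitial cells of the contralateral and late libraries, beside 221 CPM in contralateral resting cells. In the late library it was 239.3 in late-type, 599.9 in activated and 791.6 CPM in unnamed cells. *Adamts10* was highest among named contralateral subtypes in resting cells, at 97.2 CPM (91.2 to 103.5), and in the late library was 72.8 (43.2 to 115.1) in 20 resting, 41.5 in late-type and 19.1 CPM in activated cells. *Adamts15* was 141.6 CPM in resting contralateral cells, and in the late library 157.8 (112.2 to 215.7) in 20 resting, 137.0 in unnamed, 108.1 in adventitial and 42.5 CPM in late-type cells. *Adamts2* was between 264.2 and 629.0 CPM over the subtypes with at least 20 cells. An unnamed sub-cluster of 596 late cells, led by *Ptx3*, *Rnd1*, *Serpinb2* and *Il6*, had the highest late *Adamts1* (898.4 CPM) and *Adamts4* (81.9 CPM) among the sub-clusters described, with *Adamts5* at 825.4 CPM.

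**Figure D4:**
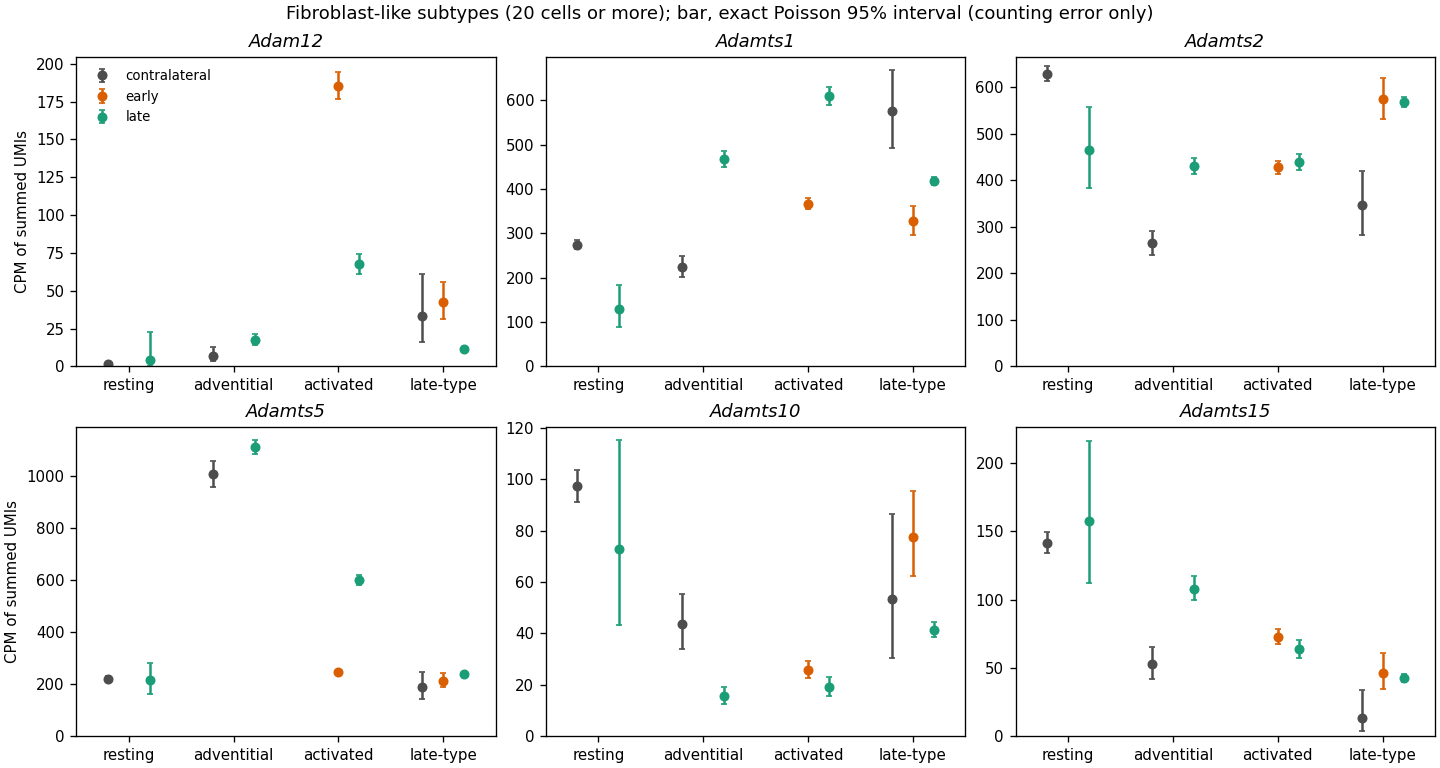
Levels of 6 members in fibroblast-like subtypes with at least 20 cells (CPM of summed UMIs; bars, exact Poisson 95% intervals that cover counting error only; color, library). *Adam12* is at 185.5 CPM in activated early cells and *Adamts5* at 1005 and 1109 CPM in adventitial cells.

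Other genes of the families were carried by other cells. *Adam8* was at 196.0 CPM in early and 145.6 in late mono/macrophage-like cells and at 280.0 and 364.6 CPM in neutrophil-like cells, but at 3.94 and 4.14 in fibroblast-like cells. *Adamts19* was at 2.46, 9.00 and 4.24 CPM in fibroblast-like cells of the contralateral, early and late libraries. The contralateral single-cell library thus held it, while the contralateral bulk veins had no read of it. *Vcan* had the library order of *Adam12*, at 152.5, 420.8 and 256.9 CPM in fibroblast-like cells, and *Timp1* too, at 101.7, 763.2 and 262.0 CPM. *Acan* was found mainly in smooth muscle-like cells, at 61.7 CPM in the early and 88.6 in the late library.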

How the data were processed

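Bulk RNA was sequenced in 25 vessels and single cells in 3 pooled libraries. For bulk vessels the authors deposited read counts per Ensembl gene, not normalized. The single-cell matrices that the authors deposited hold UMI counts of the barcodes Cell Ranger called as cells, and per the file headers its version was 6.0.2. The submitters' processing notes also name STAR and the builds mm10 and GRCm38, without roles, so which of them made the bulk table is not given in the sources used here. A count made on another annotation could shift values of genes that overlap others. Genes were named from the single-cell gene list (32210) or the reference (19962), and 4808 stayed unnamed. No per-sample column was left unused (0).

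Genes averaging 100 or more DESeq2-normalized counts were fitted with edgeR 4.0.16 (R 4.3.3, TMM, quasi-likelihood, a mean per group, all 25 libraries). Library sizes were summed over the tested genes. The biological coefficient of variation was 0.843. The closest 2 libraries differed by a mean chi-square of 43.6 per gene, so all were kept as separate samples. DESeq2 1.42.0 was an alternative. Exon lengths and loci came from GENCODE M21. Scripts were tested on simulated data.

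Cells needed 200 to 6000 genes and no more than 10% mitochondrial UMIs, and were scaled to 10000 and clustered (scanpy 1.11.5, leidenalg 0.10.2, 2000 variable genes without markers and family genes, 12 components, 20 neighbors, resolution 0.5). Clusters were named from markers fixed beforehand if at least 3 were up 2-fold. Scrublet marked 0, 2 and 120 cells in the contralateral, early and late libraries. It did not work in the first 2, where under 0.5% were marked, so doublets were kept. Depth sets the precision: summed UMIs carry exact Poisson and shares exact binomial 95% intervals, which cover counting error only, since reads or UMIs of 1 library are not replicates.

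The 10 members and the gene lists were chosen with earlier results of these data known. Named genes were the members, up to 6 called genes per list and comparison with contralateral veins, the 3 genes most like each member, and others in the lists where a count is small; the late against early values of listed genes and the sub-cluster led by *Ptx3* were chosen after their values were seen. Alternatives were another test, scaling and filter, sex as a term, female mice, 2 groups only, an adjusted p of 0.05, each library left out, other barcode filters, resolution 1, doublets left out and thinning. Library sizes over all genes were added after the data had been seen.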

Additional observations from a re-analysis of the deposited data

Results flagged for a closer look

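In 5 of the 40 groups of values (10 members in 4 bulk groups) 1 vessel lay farther from the rest of its group than Dixon's 95% critical value allows. Chance gives about 1 in 20 groups if values are normally distributed. CPM were used without a log, so that rate need not hold here. *Adam12* was at 13.85 CPM in contralateral vein 35, beside 0 to 2.37 in the other 6 veins. *Adamts1* was at 472.4 CPM in contralateral vein 27, beside 58.5 to 233.7, and *Adamts12* at 452.7 CPM in contralateral vein 28, beside 13.4 to 66.8. Early AVF 10 stood out in *Adamts5* (161.0 CPM beside 23.9 to 85.9) and in *Adamts8* (42.18 CPM beside 1.53 to 8.27). All 5 values were the highest of their group, and the causes were not tested.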

How the results depend on the processing

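For early against contralateral vessels 2 members were called in edgeR, 4 in DESeq2, 4 at an adjusted p under 0.05, 1 when only the 2 groups were fitted and 0 in female mice alone (3 vessels remained in the early, mid and late groups), with 2 to 3 when each library was left out in turn. Mid against contralateral gave 1, but 0 in female mice alone and 0 in the fit of 2 groups, with 1 for each library left out. Late against contralateral gave 1, but 0 in female mice alone and 0 in the fit of 2 groups, with 0 to 1 over the libraries left out. Mid against early gave 0, but 1 in DESeq2 and 1 at an adjusted p under 0.05, with 0 to 1 over the libraries left out (1 without early AVF 10). Late against early gave 1, but 0 with no filter on low counts and 0 in female mice alone, with 0 to 1 over the libraries left out. In the fit of 2 groups the 1 call there was *Adam12*, lower, in place of *Adamts10*, higher. Late against mid gave 0 in each alternative run. No called member changed sign, and 16 of the 60 member comparisons, none beyond 0.73 on the log2 scale, did so under some alternative. Of the other fold changes under other settings 521 kept their side of the threshold, 9 gained and 10 lost a call. Over all genes edgeR called 1599, 767, 676, 1 and 381 genes in the first 5 comparisons and DESeq2 2440, 1418, 1294, 474 and 753. Library sizes summed over all genes, added after the data had been seen, called 3 members in early against contralateral vessels and moved the median of all genes by 0.12 in mid against early and late against early AVFs. The numbers of members highest in fibroblast-like cells (4, 6 and 4) stayed within 1 of these values under other barcode filters, resolutions, doublet removal and thinning. Of the members' levels in fibroblast-like cells under the first 3 of these settings, 74 stayed within the interval of the main value and 16 did not. The causes were not tested. Some contralateral libraries held no read of *Adam12*, *Adamts4* or *Adamts8*. No paired analysis was possible because no vessel of one group shares a replicate number with a vessel of another.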
